A study of Mus musculus with 42 samples.

Results

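Genes that handle carbon dioxide, bicarbonate and water were followed through 42 RNA-seq libraries of mouse colon: the carbonic anhydrases Car1, Car2, Car4, Car12 and Car13, and the aquaporins Aqp1, Aqp3, Aqp4, Aqp8 and Aqp11. They were taken by name and are 10 of the 19232 gene names in the series. The study deleted Smad4 or Alk3 (named Bmpr1a in the data) in Gli1+ stromal cells to ask what bone morphogenetic protein (BMP) signaling in the stroma does for the colonic epithelium, and treated colonic organoids with cytokines. All mice carried Gli1-CreERT2 and received tamoxifen, the controls included. The control groups GWTM2 and GWTT were labelled wild type, the GS4M2 and GS4T groups were Smad4 fl/fl, and the GA3M2 and GA3T groups were Alk3 fl/fl. Groups ending in M2 held Muc2-mCherry+ goblet cells, and groups ending in T held Gli1+ stromal cells marked with tdTomato from a Rosa26 allele. Each cell type was isolated at day 30 from both colon segments, proximal and distal, of adult mice of both sexes, with 2 libraries per group. Because the Cre is expressed in the stroma, the sorted goblet cells themselves were not the cells in which the gene was deleted. Wild-type colonic organoids were left untreated or were given IL-1α with IL-1β, or IL-17A, at 10 nM for 12 or 72 hours, with 3 libraries per group. Their medium held the BMP inhibitor Noggin together with EGF, R-spondin1, Wnt3a conditioned medium and CHIR.

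Carbonic anhydrases catalyse the interconversion of carbon dioxide with bicarbonate and a proton. In the colon, surface cells use these ions to exchange sodium and chloride for protons and bicarbonate, and crypt and goblet cells secrete bicarbonate, which mucins need in order to unfold. Car1, Car2 and Car13 are cytosolic enzymes, Car4 is held at the cell surface by a glycolipid anchor, and Car12 spans the membrane with its active site outside. Aquaporins are channel proteins that let water cross membranes. Aqp1, Aqp4 and Aqp8 are water channels, of which Aqp8 is best known from the apical membrane of absorptive colonocytes and Aqp1 from capillary endothelium and red cells. Aqp3 also passes glycerol, and Aqp11 is an intracellular member of the family. On the GRCm38 (mm10) mouse genome, 3 of the members lie in one cluster on chromosome 3: Car13 at chr3:14641727-14663002, Car1 at chr3:14766216-14808368 and Car2 at chr3:14886273-14900770. The other enzymes are Car4 at chr11:84957786-84966044 and Car12 at chr9:66713686-66766845. Among the channels, Aqp1 lies at chr6:55336432-55348555, Aqp8 at chr7:123462291-123468004 and Aqp11 at chr7:97724006-97738289. All are protein-coding genes, and the values cover each gene as a whole.

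The stretches before the start sites of the 3 members with log2 fold changes over 2 in size in organoids given IL-1 for 72 hours are shown first, so that their letters stand beside the values that follow. Each runs 5′ to 3′ through the 250 bases before the RefSeq start on GRCm38.p6, in lower case, with matches to the NF-κB consensus in capitals. NF-κB is the transcription factor family that IL-1 and IL-17 receptors are known to activate. Aqp8 (chr7:123462044-123462293, plus strand), Car4 (chr11:84957504-84957753, plus strand) and Aqp1 (chr6:55336049-55336298, plus strand) read as follows.
Aqp8: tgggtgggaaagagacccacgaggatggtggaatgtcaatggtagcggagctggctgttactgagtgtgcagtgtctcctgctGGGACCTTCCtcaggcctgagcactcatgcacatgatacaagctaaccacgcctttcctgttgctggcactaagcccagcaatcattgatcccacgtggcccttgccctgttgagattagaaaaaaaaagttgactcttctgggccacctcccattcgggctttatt
Car4: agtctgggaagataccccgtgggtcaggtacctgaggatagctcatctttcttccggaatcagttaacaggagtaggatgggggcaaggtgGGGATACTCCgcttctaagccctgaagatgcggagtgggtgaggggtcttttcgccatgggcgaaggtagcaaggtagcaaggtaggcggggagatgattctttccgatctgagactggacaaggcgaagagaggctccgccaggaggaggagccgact
Aqp1: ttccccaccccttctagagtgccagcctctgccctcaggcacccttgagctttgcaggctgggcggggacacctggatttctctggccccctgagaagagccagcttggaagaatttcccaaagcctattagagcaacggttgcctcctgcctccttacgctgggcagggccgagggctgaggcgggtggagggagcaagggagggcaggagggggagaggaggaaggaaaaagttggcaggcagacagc
The Aqp8 stretch held 1 match to the NF-κB consensus, from 167 to 158 bases before the start, and the Car4 stretch held 1 match, from 159 to 150 bases before the start. No match was found in the Aqp1 stretch. The same consensus was present in 7.25% of all 32851 RefSeq promoters cut to the same length. Promoters were at hand for 6 of the 10 members. The BMP Smad element GGCGCC occurred once before Aqp3 and once before Aqp11, read on both strands because it is a palindrome, against 9.59% of all promoters. The Cdx2 core TTTATG was in none of the 6, against 10.8% of all promoters. A match is a description of letters and not a binding site. No matches of different motifs overlapped in the 6 stretches.

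Reads on named genes ran from 14222902 to 23686940 per library for Gli1+ cells, from 15647603 to 20783127 for goblet cells and from 14815170 to 17665812 for organoids. Levels are given here as normalized counts within a table, which are the authors' counts divided by a size factor, or as CPM (reads of a gene scaled by all reads on named genes of its library) where libraries of different tables are set side by side. Calls needed 2 things in limma: a p below 0.05 after Benjamini-Hochberg adjustment over all genes, and a log2 fold change of 1 or more in size. Counts at an unadjusted p, by edgeR and by DESeq2 kept the same limit on the fold change. Stromal markers set the 2 sorted cell types apart: they summed to between 40398 and 57289 CPM in Gli1+ cells and to at most 22.4 CPM in goblet cells. Smad4 was lower in every GS4T library and Bmpr1a in every GA3T library than in the controls of the same table. Some libraries went against their group: Gli1 itself was at 23.9 normalized counts in GS4T-Proximal_2 and at 34.7 in GA3T-Proximal_2, against at least 642 in every other Gli1+ library. Muc2 was low in the whole GA3M2 group, at 12294 to 18753 normalized counts, against at least 41156 in the other goblet cell libraries of those tables. In reads, GA3M2 libraries held 12826 to 18632 of Muc2, fewer than the unsorted control organoids at 37372 to 60221. The GA3M2 cells are therefore called goblet cells here by their label only. In the organoids, Control-12h_2 and Control-72h_1 held the same reads, as did Control-12h_4 and Control-72h_4, so the controls of the 2 times are in part the same libraries.

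Per kilobase of exon, Car1 and Car2 were the most abundant members in all 3 sources. Median levels in organoids were 874 CPM per kb for Car1, 511 for Car2 and 182 for Aqp8, followed by Aqp4 at 76.0, Car13 at 18.2, Car4 at 11.4, Aqp1 at 6.61, Car12 at 5.15 and Aqp11 at 1.40 (18 libraries). In goblet cells the order of median levels per kb was Car1 at 524, Car2 at 131, Aqp1 at 71.0, Aqp4 at 29.8, Aqp8 at 21.7, Car4 at 21.6, Car12 at 9.18, Car13 at 8.38 and Aqp11 at 1.96 CPM per kb (12 libraries). Most neighbours in these orders overlapped in their ranges over libraries. The exceptions were Aqp8 and Aqp4, Aqp4 and Car13, and Car12 and Aqp11 in organoids, and Car13 and Aqp11 in goblet cells, where the ranges per kb did not meet. Car1 spanned 74.3 to 5036 CPM and Car2 spanned 188 to 675 CPM across the goblet cell libraries. Aqp1, the third member in goblet cells, ran from 36.2 to 302 CPM there and from 0.625 to 62.4 CPM in organoids. Aqp8 ran from 160 to 5199 CPM in organoids. Gli1+ cells held little of most members, with medians of 69.5 CPM for Car1, 25.8 for Car2, 15.5 for Car13, 11.9 for Aqp4 and 9.34 for Aqp1, and below 5 CPM for Car4, Car12, Aqp8 and Aqp11. Car13 ran from 14.9 to 32.0 CPM in goblet cells and from 7.03 to 25.4 CPM in Gli1+ cells. Aqp1 is also known from endothelium and red cells. The 7 endothelial markers summed to between 0.241 and 2.31 CPM in goblet cells and between 0.0574 and 0.909 CPM in organoids, where 5 or 6 of them had no row and count as nothing. Their part in the Aqp1 levels was not tested. Aqp3 had a row in only 3 tables, all of Gli1+ cells, and ran from 0 to 0.680 CPM over 10 libraries. It passed the filter on low values in none of them and was not tested, whereas each of the other 9 members passed in every table. A value of 0, as for Aqp3 in GS4T-Distal_1 and Aqp8 in GWTT-Proximal_1, allows up to 3 reads and covers counting error only.

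**Figure D1:**
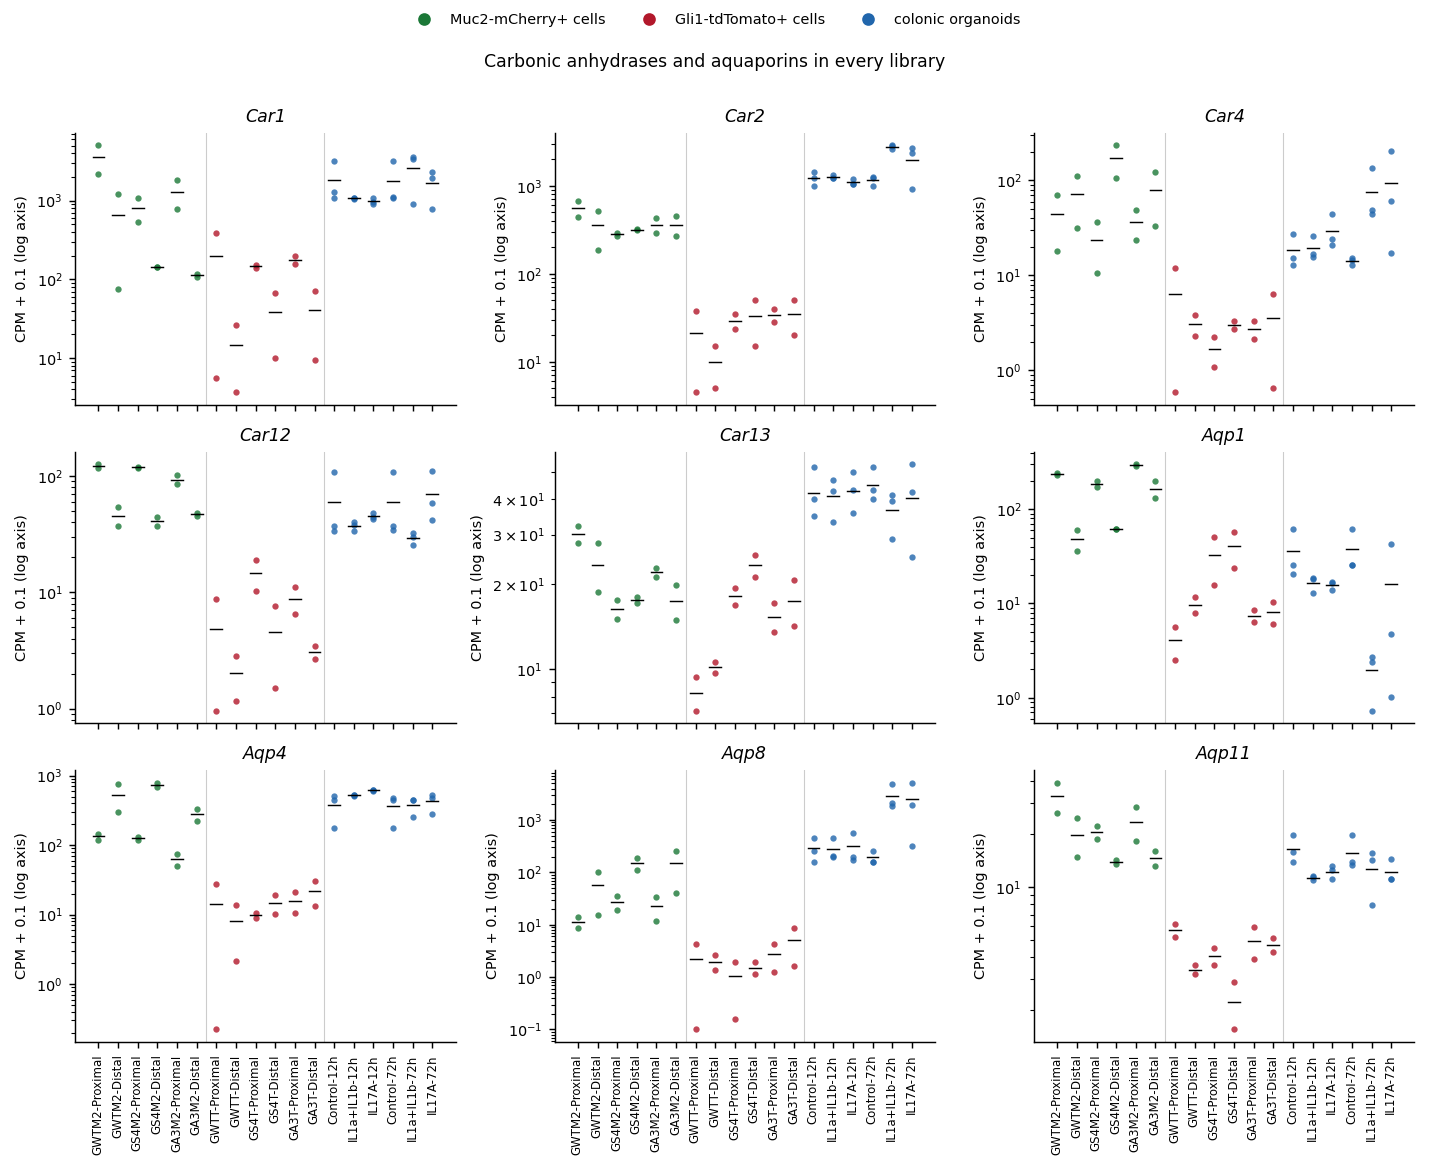
Level of 9 members in each of the 18 groups, in CPM plus 0.1 on log axes that differ between panels, with 1 point per library and a line at the group mean. Aqp8 runs from 0 CPM in a Gli1+ library to 5199 CPM in an organoid library, and Car13 from 7.03 to 53.3 CPM.

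In organoids given IL-1α and IL-1β for 72 hours, Aqp8, Car4 and Car2 were higher than in untreated organoids, and Aqp1 was lower. These were the 4 of 9 tested members that were called, against 23% of all 13023 genes tested in this comparison. Aqp8 stood at 3925, 2415 and 2388 normalized counts in Control-72h_1, Control-72h_2 and Control-72h_4, and at 40946, 30701 and 92693 in the treated libraries. Every treated library held more Aqp8 than any control. The log2 fold change of Aqp8 was 4.11 (SE 0.40, limma adjusted p = 0.00231, 3 against 3 libraries), or 18.8-fold between the means. Car4, the surface enzyme, had 193, 217 and 224 normalized counts in controls and 944, 740 and 2585 with IL-1. Its log2 fold change was 2.52 (SE 0.42, limma adjusted p = 0.00484), and the groups did not overlap. Car2, the abundant cytosolic enzyme, stood at 15109, 18902 and 18247 normalized counts in controls and at 55529, 43832 and 54168 after treatment, with little spread in either group. The log2 fold change of Car2 was 1.55 (SE 0.19, limma adjusted p = 0.00295). Aqp1 went the other way, from 942, 380 and 375 normalized counts in controls to 44.5, 43.8 and 12.1 with IL-1. That was a log2 fold change of -4.10 (SE 0.57, limma adjusted p = 0.00331), with all treated libraries below all controls. No other member was apart between these groups, so 4 were, against 54.7% of all genes. All 4 calls held when any 1 of the 6 libraries was left out, with log2 fold changes of Aqp8 from 3.65 to 4.44 and of Aqp1 from -4.41 to -3.51. In these bulk libraries, fewer cells of a type and less RNA per cell cannot be told apart. Control-72h_1 and Control-72h_4 hold the same reads as Control-12h_2 and Control-12h_4, so the time for which they were grown is not known. In this comparison, and in that of IL-17A at 72 hours, culture time and cytokine can therefore not be fully told apart.

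The remaining members were not called after 72 hours of IL-1. Car1 was spread widely in both groups, at 47833, 16727 and 16144 normalized counts in controls and at 17435, 57318 and 69367 with IL-1, so that the groups overlapped (log2 fold change 0.81, 95% interval -0.58 to 2.20, limma adjusted p = 0.315). Car12 was high in Control-72h_1, at 1624 normalized counts, and lay between 493 and 627 in the other 5 libraries. Car13 differed by -0.01 on the log2 scale (95% interval -0.45 to 0.43) and Aqp11 by -0.06 (95% interval -0.76 to 0.65). Aqp4 had values of 2659 to 7177 normalized counts in controls and 4828 to 8529 with IL-1 (95% interval of the log2 fold change -0.47 to 1.35). The median log2 fold change over the 9 members was 0.438, against -0.000856 over all genes tested.

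Summed markers of cell types also differed between these groups. The sum of 8 colonocyte markers was 1149 to 1861 CPM in the 72-hour controls and 2273 to 3555 CPM with IL-1. The sum of 5 crypt base and stem cell markers was 256 to 386 CPM in those controls and 10.6 to 42.0 CPM with IL-1. One of the 8 colonocyte markers, Slc26a3, is also in the list of transport partners described further on. Slc26a3 was itself higher with IL-1 (log2 fold change 1.78, limma adjusted p = 0.00467). The colonocyte sum was not taken without it, so the sum does not show whether the other colonocyte markers rose. The part of these marker sums in the member values was not tested. Xist also differed among libraries and was at 26159 and 32621 reads in Control-72h_2 and Control-72h_4 and at 26326 in IL1a+IL1b-72h_2, and at 8 reads or fewer in Control-72h_1, IL1a+IL1b-72h_1 and IL1a+IL1b-72h_3. Among libraries with Xist, of which only 1 was treated, Aqp8 stood at 30701 against 2415 and 2388 normalized counts, Car4 at 740 against 217 and 224, Car2 at 43832 against 18902 and 18247, and Aqp1 at 43.8 against 380 and 375. Among those nearly without it, of which only 1 was a control, Aqp8 stood at 40946 and 92693 against 3925, Car4 at 944 and 2585 against 193, Car2 at 55529 and 54168 against 15109, and Aqp1 at 44.5 and 12.1 against 942. With 1 library on a side there was no test within these classes.

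Interleukin-17A for 72 hours gave Aqp8 values of 36567, 4936 and 107094 normalized counts, against 3917, 2401 and 2383 in controls. No member was called by limma, against 7.94% of all genes tested. Of the alternatives, limma at an unadjusted p under 0.05 called 2 (against 20.6% of all genes), edgeR 0 (6.65%) and DESeq2 3 (17.7%), these 3 being Car2, Car4 and Aqp8. IL17A-72h_2 stood apart from the other treated libraries in the members that moved with IL-1. It held 4936 normalized counts of Aqp8, 271 of Car4, 14467 of Car2 and 666 of Aqp1, all close to control values. IL17A-72h_1 and IL17A-72h_3 held 1131 and 4189 of Car4, 50198 and 48733 of Car2, and 87.4 and 18.9 of Aqp1. Across all expressed genes, IL17A-72h_2 was most similar to Control-72h_1 (r = 0.956 over genes, as log2 CPM). With all libraries, Aqp8 had a log2 fold change of 3.25 (SE 1.01, limma adjusted p = 0.0702) and Car4 of 2.36 (SE 0.87, limma adjusted p = 0.0981), and both groups were apart in these 2 genes. In all, 2 members were apart, against 45.3% of all genes. Without IL17A-72h_2, 4 members were called, against 27.5% of all genes: Aqp8 at 4.47, Car4 at 3.37, Car2 at 1.52 and Aqp1 at -3.61 (limma adjusted p = 0.00271, 0.00509, 0.00292 and 0.0102). When Control-72h_1 was left out as well, the same 4 were called, against 28.2% of all genes, with log2 fold changes of 4.71, 3.30, 1.42 and -3.17. IL17A-72h_2 was singled out by its values of these same 4 genes, and leaving out both libraries was chosen after seeing the data. The calls of these 4 members without it follow in part from that choice and are no independent result. All 3 IL-17A libraries at 72 hours had 4 or fewer Xist reads, and of the 3 controls Control-72h_1 had 6 and the others 26159 or more. Car1 (14602 to 47669 normalized counts with IL-17A against 16111 to 47736), Car12 (782 to 1725 against 515 to 1621), Car13 (513 to 835 against 591 to 781), Aqp4 (5747 to 9928 against 2654 to 7136) and Aqp11 (207 to 227 against 199 to 296) overlapped.

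**Figure D2:**
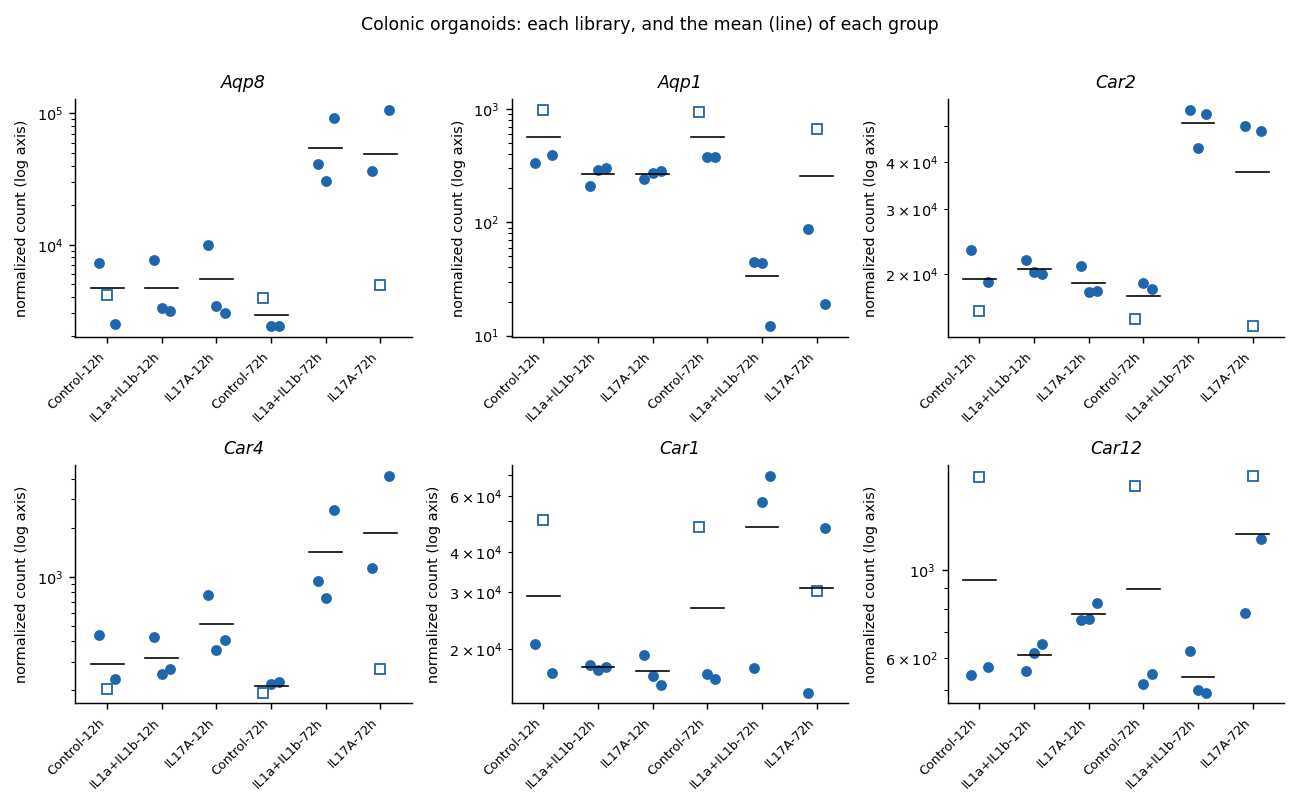
Normalized counts of Aqp8, Aqp1, Car2, Car4, Car1 and Car12 in organoid libraries at 12 and 72 hours, on log axes, with 1 point per library and a line at the group mean. Controls and IL-1 libraries are drawn on the scale of the IL-1 comparisons. IL-17A libraries are on that of the IL-17A comparisons, where the size factors of the controls differ. Open squares mark IL17A-72h_2 and 1 control library that occurs at both times, as Control-12h_2 and Control-72h_1. Another control library that occurs at both times, as Control-12h_4 and Control-72h_4, is drawn as a filled point. IL17A-72h_2 lies near the controls for Aqp8, Car4, Car2 and Aqp1, while the other 72-hour treated libraries lie away from them.

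At 12 hours no member was called with either cytokine. With IL-1 the percentage of all genes called was 0.0542%, and with IL-17A 0.0385%. With IL-1, limma at an unadjusted p under 0.05 called 0 (against 0.922% of all genes), edgeR 0 (0.0155%) and DESeq2 0 (0.333%). With IL-17A, limma at an unadjusted p under 0.05 called 0 (against 1.08% of all genes), edgeR 0 (0.0308%) and DESeq2 0 (0.393%). Aqp8 stood at 7294, 4140 and 2489 normalized counts in controls and at 7604, 3283 and 3134 with IL-1, so the spread within a group was larger than the difference (95% interval of the log2 fold change -1.10 to 1.14). Library number 1 held the highest Aqp8 value in the control, IL-1 and IL-17A groups alike. Car2 was at 15938 to 23198 normalized counts in controls and at 20032 to 21861 with IL-1 (95% interval -0.25 to 0.47). Car4 had 204 to 435 normalized counts in controls, 250 to 426 with IL-1 and, on the scale of its own table, 354 to 768 with IL-17A against 214 to 457. Aqp1 was apart between the groups with both cytokines: 211 to 305 normalized counts with IL-1 against 332 to 994, and 243 to 287 with IL-17A against 348 to 1041. The log2 fold changes were -0.92 (limma adjusted p = 0.886) and -0.98 (limma adjusted p = 0.926), and neither passed. There were 2 members apart with each cytokine, against 9.53% of all genes with IL-1 and 10.9% with IL-17A. Beside Aqp1 these were Aqp11, lower with IL-1 at 178 to 188 against 214 to 313 normalized counts, and Aqp4, higher with IL-17A at 10313 to 10782 against 2939 to 8690. Car1 was at 16828 to 50456 normalized counts in controls and 17169 to 17768 with IL-1, Car12 at 546 to 1713 and 559 to 653, and Car13 at 562 to 825 and 548 to 764. The cytokine comparisons share their control libraries.

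With the controls shared by both times left out, no member was called for a difference in its response to IL-1 between 12 and 72 hours. With all entries of both tables, the difference of the log2 fold changes was called in the same 4 members. It was 4.09 for Aqp8 (SE 0.69, limma adjusted p = 0.00583), 2.37 for Car4 (SE 0.60, adjusted p = 0.0178), 1.44 for Car2 (SE 0.23, adjusted p = 0.00568) and -3.18 for Aqp1 (SE 0.78, adjusted p = 0.0159). Of all genes, 17.4% were called in this test. The controls of both times hold 2 libraries in common, so the 12 entries of this fit are 10 distinct libraries, 2 of them counted double, and these p-values are too small. With those controls left out of both times (8 libraries, 1 control each) the differences were 5.11, 2.99, 1.59 and -3.36 and none of the 4 was called (limma adjusted p = 0.111, 0.119, 0.111 and 0.118), nor was any gene (0%). All 4 were under 0.05 by the unadjusted p, and edgeR and DESeq2 were not run on this selection. Compared directly by CPM, without any control, the treated libraries of the 2 times differed in the same 4 members, which were called at 3.34, 1.81, 1.12 and -3.29, against 20.9% of all genes. For IL-17A no member was called in the difference between times, against 0.0384% of genes. There, limma at an unadjusted p under 0.05 called 1 (against 15.8% of all genes) and edgeR 0 (0.0384%). IL-1 and IL-17A were compared with each other on treated libraries alone. Neither at 12 nor at 72 hours was a member called, and the percentage of all genes called was 0 at both times. At 12 hours limma at an unadjusted p under 0.05 called 0 (against 0.328% of all genes) and edgeR 0 (0%). At 72 hours limma at an unadjusted p under 0.05 called 1 (against 0.19% of all genes) and edgeR 0 (0%). There were 3 members apart at 12 hours, against 4.87% of all genes: Car2 was higher with IL-1, and Car12 and Aqp4 were higher with IL-17A. With the paired library number as a block, these 3 had adjusted p = 4.64e-05, 0.00697 and 1.21e-05 in limma at log2 differences of 0.20, -0.28 and -0.23, below the limit of 1, and the number of all genes called went from 0 to 40. Aqp4 was at 530, 535 and 504 CPM with IL-1 and at 616, 608 and 615 CPM with IL-17A. At 72 hours 1 member was apart, against 2.87%. At 72 hours Car12 was lower with IL-1, at 25.5 to 32.5 CPM, than with IL-17A, at 41.7 to 110 CPM (log2 difference -1.14, 95% interval -1.96 to -0.33, limma adjusted p = 0.9999). Intervals for the other members were wide, from -1.39 to 3.08 for Aqp8, -1.87 to 2.16 for Car4 and -4.84 to 1.21 for Aqp1, so similar action of the cytokines was not shown.

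The wider families moved in both directions after 72 hours of IL-1. Of the other carbonic anhydrases, 3 of 5 tested were called, against 23% of all genes. Car9, a surface enzyme induced by hypoxia, rose from between 3067 and 3352 normalized counts in controls to between 7611 and 10994, a log2 fold change of 1.5 (limma adjusted p = 0.00264). Car5b, a mitochondrial enzyme, was higher (1.68, adjusted p = 0.0242) and Car8, which lacks catalytic activity, was lower (-1.67, adjusted p = 0.0269). None of the other aquaporins passed the filter. Among 13 tested transport partners, 7 were called, against the same 23%. The chloride-bicarbonate exchanger Slc26a3, the sodium-proton exchanger Slc9a2, the anion channel Best2 and the proton pump Atp12a were higher, whereas Cftr, Slc26a6 and the chloride loader Slc12a2 were lower. Atp12a went from between 222 and 1908 normalized counts in controls to between 15901 and 48566, with a log2 fold change of 5.18 (SE 0.83, limma adjusted p = 0.00451). Slc26a3 went from between 7121 and 7848 to between 16211 and 38312, while the secretory channel Cftr went from between 2939 and 3174 down to between 295 and 904 (log2 fold change -2.30, adjusted p = 0.00531). With IL-17A, 1 of 4 other carbonic anhydrases was called, Car9 at 1.46 (limma adjusted p = 0.0296), and 0 of 12 partners, against 7.94% of all genes. IL17A-72h_2 was also like the controls in Atp12a, at 1061 normalized counts against 45435 and 70649 in the other treated libraries. It was not like them in Car9, at 6639 normalized counts against 3049 to 3345 in controls.

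In goblet cells of control mice, Aqp1, Car12 and Car1 were higher in the proximal colon and Aqp4 and Aqp8 in the distal colon. None was called in the unpaired fit. Of all genes, 0.361% were called in this comparison. Over the members, limma at an unadjusted p under 0.05 called 4 (against 5.35% of all genes) and edgeR 0 (0.188%), while a pseudocount of 1 in place of 0.1 gave 1 (0.541%). Same-numbered libraries of the segments deviated together (r = 0.565). Xist was at 23806 and 21048 reads in the libraries numbered 1 and at 6 and 13 in those numbered 2. No label pairs them, and the calls with the number as a block are given in the closing section. Aqp1 stood at 231 and 241 CPM proximally and at 36.2 and 59.9 CPM distally. Its log2 difference was 2.34 (SE 0.25, limma adjusted p = 0.0524), just over the threshold. Car12 had 127 and 117 CPM proximally against 37.1 and 54.2 CPM distally (1.44, SE 0.21, adjusted p = 0.0862). Aqp4 was reversed, at 147 and 120 CPM against 296 and 767 CPM (-1.85, SE 0.45, adjusted p = 0.213). Between the segments 7 members were apart, against 44.7% of all genes. Car1 and Aqp8 depended on which distal library was used. Car1 had 2160 and 5036 CPM proximally but 74.3 CPM in GWTM2-Distal_1 and 1228 in GWTM2-Distal_2, and Aqp8 had 8.42 and 13.98 CPM against 15.3 and 100. The colonocyte marker sum was likewise 864 CPM in GWTM2-Distal_1 and 2136 CPM in GWTM2-Distal_2, and Xist was at 21048 and 13 reads. Without GWTM2-Distal_1 the calls were Aqp1, Car12, Aqp4 and Aqp8, against 2.69% of all genes, and without GWTM2-Distal_2 they were Aqp1, Car12, Aqp4, Car1 and Car2, against 3.39%. Without either proximal library there was no call.

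**Figure D3:**
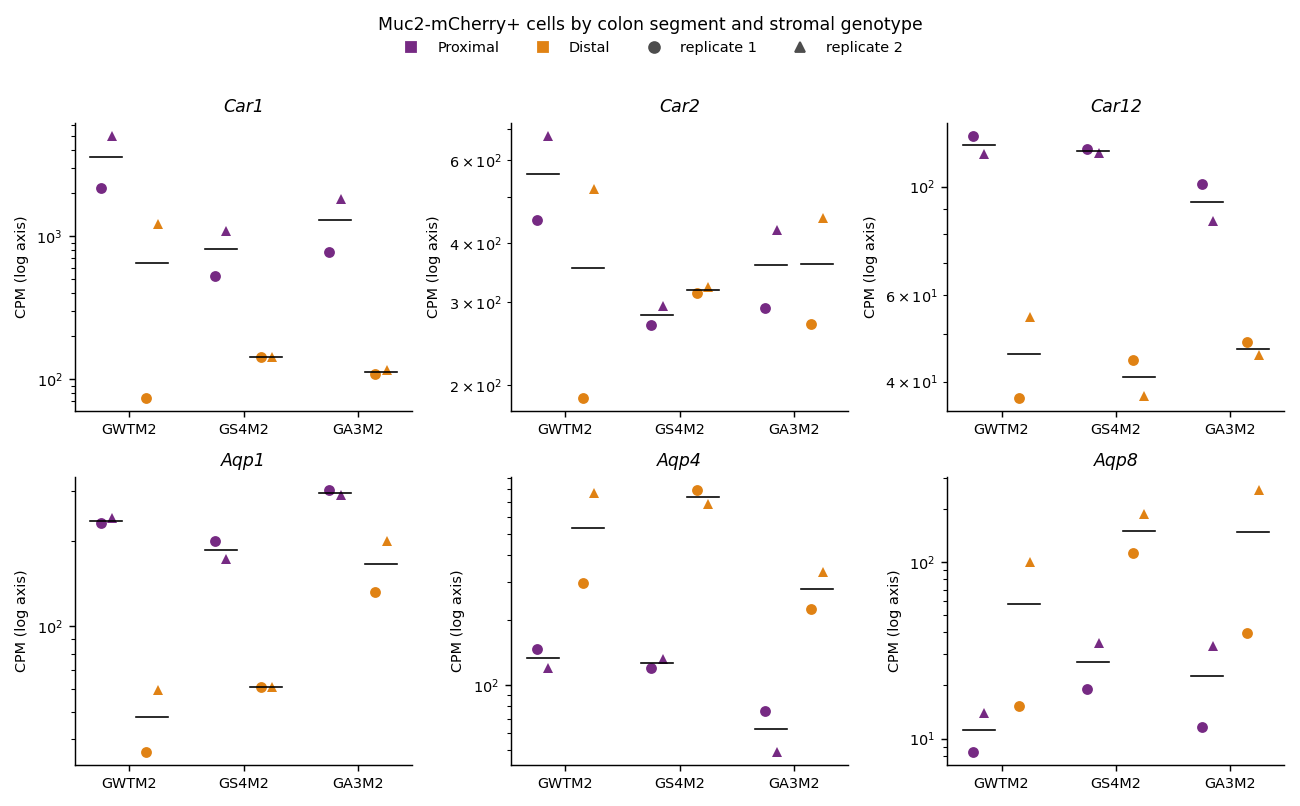
Level of Car1, Car2, Car12, Aqp1, Aqp4 and Aqp8 in goblet cells by genotype, in CPM, purple for proximal and orange for distal colon, circles for library 1 and triangles for library 2. Aqp1 and Car12 lie higher proximally in each genotype and Aqp4 lies higher distally, while distal GA3M2 libraries hold more Aqp1 and less Aqp4 than distal GS4M2 libraries.

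With Smad4 deleted in the stroma, proximal goblet cells (GS4M2 against GWTM2) had lower values of most members, none of them called. The percentage of all genes called was 0.325%. Under the other rules, limma at an unadjusted p under 0.05 called 3 (against 4.28% of all genes), edgeR 0 (0.385%) and DESeq2 2 (2.04%), the 2 being Car2 and Aqp8. Among the cytosolic enzymes, Car1 stood at 8706 and 18514 normalized counts against 36763 and 86318 in controls (log2 fold change -2.15, SE 0.49, limma adjusted p = 0.133). Car2 had 4418 and 4972 against 7610 and 11569 (-1.001, SE 0.20, adjusted p = 0.112), and Car13 had 246 and 296 against 477 and 548 (-0.92, SE 0.16, adjusted p = 0.0891). All 3 of these cluster genes lay below both controls in both knockout libraries. Aqp8 was the 1 member apart in the other direction, at 315 and 589 against 143 and 240 normalized counts (1.21, SE 0.36, adjusted p = 0.194). In all, 7 members were apart, against 50.2% of all genes. Without GWTM2-Proximal_1, which had the lower Car2 value of the 2 controls, Car2 was called at -1.30 (limma adjusted p = 0.0220), against 1.16% of all genes. Aqp1 was at 3290 and 2928 normalized counts against 3934 and 4133, Aqp11 at 307 and 377 against 445 and 670, and Car12 at 1968 and 1985 against 2160 and 2001, all 3 apart. Car4 (171 and 615 against 307 and 1215) and Aqp4 (1962 and 2235 against 2496 and 2054) overlapped. The only libraries with many Xist reads among goblet cells were GWTM2-Proximal_1 and GWTM2-Distal_1, so the knockout libraries matched only 1 control library per segment in this respect. Colonocyte markers summed to 1121 and 1480 CPM in GS4M2 and to 1735 and 2924 CPM in the proximal controls, and their part in the Car1 and Car2 values was not tested.

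In proximal goblet cells of GA3M2 mice, the lowest adjusted p among members was that of Aqp4, at 1381 and 944 normalized counts against 2658 and 2172 in controls (log2 fold change -1.07, SE 0.24, limma adjusted p = 0.182). No member was called, against 0.0899% of all genes. In place of these, limma at an unadjusted p under 0.05 called 2 (against 6.83% of all genes), edgeR 0 (0.105%) and DESeq2 1 (3.23%), which was Aqp4. Car1 stood at 14224 and 34825 against 39142 and 91255 normalized counts (-1.43, SE 0.57, adjusted p = 0.323). Aqp1 was at 5521 and 5547 against 4188 and 4370 normalized counts, a narrow spread around a log2 fold change of 0.37 (95% interval -0.04 to 0.78). There were 5 members apart, against 52.1% of all genes. Without GA3M2-Proximal_1, Aqp4 was called, against 7.75% of all genes. The other members apart were Car12, at 1846 and 1634 normalized counts against 2300 and 2116, and Car13, at 388 and 435 against 508 and 580. Car2 (5331 and 8169 against 8103 and 12231), Car4 (429 and 933 against 327 and 1285), Aqp8 (213 and 646 against 153 and 253) and Aqp11 (333 and 545 against 473 and 709) overlapped. Goblet markers summed to 13861 and 10229 CPM in the GA3M2 libraries against 31165 and 34643 CPM in controls, and their part in these values was not tested.

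Distal goblet cells gave no call in either knockout against control, where 0% of all genes were called in both comparisons. For GS4M2, limma at an unadjusted p under 0.05 called 0 (against 2.7% of all genes), edgeR 0 (0%) and DESeq2 0 (1.12%). For GA3M2, limma at an unadjusted p under 0.05 called 1 (against 4.12% of all genes), edgeR 0 (0%) and DESeq2 1 (1.83%), which was Aqp1. Aqp1 stood at 2269 and 3269 normalized counts in GA3M2 against 613 and 1046 in controls (log2 fold change 1.76, SE 0.31, limma adjusted p = 0.276). It was the 1 member apart in this comparison, against 44.2% of all genes, and it was called without either of the control libraries but not without either of the GA3M2 libraries. In GS4M2, Aqp1 was at 1027 and 1065 against 641 and 1083, inside the range of the controls. Aqp8 was at 1897 and 3256 in GS4M2 against 271 and 1817 normalized counts, and Car4 at 1796 and 4078 against 560 and 2024 (95% intervals of the log2 fold change -0.48 to 4.12 and -0.43 to 3.12). In GS4M2, 3 members were apart, against 45.7% of all genes: Aqp8, Car13 at 287 and 312 against 330 and 505 normalized counts, and Aqp11 at 239 and 234 against 261 and 444. Car2 (5293 and 5619 against 3336 and 9425), Car12 (745 and 653 against 657 and 980) and Aqp4 (13376 and 11926 against 5245 and 13889) overlapped. In GA3M2 the members that overlapped were Car1 (1861 and 1886 against 1259 and 21448), Car2 (4638 and 7379 against 3191 and 9097), Car4 (566 and 2022 against 536 and 1954), Car12 (828 and 740 against 629 and 946), Car13 (255 and 325 against 316 and 487), Aqp4 (3863 and 5441 against 5018 and 13406), Aqp8 (682 and 4198 against 259 and 1754) and Aqp11 (224 and 260 against 250 and 428). The 2 distal controls differed widely in Car1, at 1316 and 22220 normalized counts beside GS4M2 values of 2405 and 2494. With GWTM2-Distal_1 left out, Car1 was called in both knockouts (-3.18 and -3.52), and Aqp4 (-1.55) and Aqp1 (1.38) in GA3M2, against 1.77% of all genes in GS4M2 and 4.87% in GA3M2. With GWTM2-Distal_2 left out, Aqp4 and Aqp8 were called in GS4M2 (1.27 and 3.19), against 1.33% of all genes, and Aqp8 and Aqp1 in GA3M2 (2.70 and 2.15), against 2.45%. The responses of the segments were compared by the difference of log2 fold changes, and no member was called for GS4M2 or GA3M2, against 0% of all genes in both tests. For the GS4M2 difference, limma at an unadjusted p under 0.05 called 0 (against 2.36% of all genes) and edgeR 0 (0%). For that of GA3M2, limma at an unadjusted p under 0.05 called 1 (against 1.01% of all genes) and edgeR 0 (0%), the 1 being Aqp1 at -1.39 (proximal minus distal).

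Set against each other, the distal goblet cells of the 2 knockouts differed in Aqp1 and Aqp4. These were the 2 members called, against 1.48% of all genes. Aqp1 stood at 61.0 and 61.1 CPM in GS4M2 and at 132 and 200 CPM in GA3M2, so that the GS4M2 libraries nearly coincided. The log2 difference, GS4M2 minus GA3M2, was -1.41 (SE 0.19, limma adjusted p = 0.0265). Aqp4 had 795 and 684 CPM in GS4M2 and 225 and 333 CPM in GA3M2. Its log2 difference was 1.43 (SE 0.19, limma adjusted p = 0.0255). Both calls held when any 1 of the 4 libraries was left out, between -1.71 and -1.11 for Aqp1 and between 1.15 and 1.71 for Aqp4. Control values, at 36.2 and 59.9 CPM for Aqp1 and 296 and 767 CPM for Aqp4, lay below GA3M2 for Aqp1 and overlapped the range of each knockout for Aqp4. With GA3M2-Distal_2 left out, Aqp8 (1.87) and Car4 (2.26) were called as well, against 2.38% of all genes, and with GS4M2-Distal_1 left out, Car4 (1.87) was, against 1.86%. The 4 members apart, against 50.4% of all genes, were Aqp1, Aqp4, Car1 and Car12. Goblet markers summed to 42387 and 49696 CPM in distal GS4M2 and to 24670 and 15445 CPM in distal GA3M2, and their part in this difference was not tested. Proximally no member was called, against 0.233% of all genes, and 4 were apart (Aqp1, Aqp4, Car12 and Car13), against 53.4%. For this contrast, limma at an unadjusted p under 0.05 called 1 (against 6.87% of all genes) and edgeR 0 (0.0903%). Without GA3M2-Proximal_1, Aqp4 (1.35) and Car1 (-1.25) were called, against 12.4% of all genes. Aqp4 lay in the same order there, at 119 and 132 CPM in GS4M2 against 75.6 and 49.2 in GA3M2 (log2 difference 1.04, SE 0.24, limma adjusted p = 0.181), and Aqp1 was at 200 and 173 CPM against 302 and 289 (-0.67, SE 0.19, adjusted p = 0.234).

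Among the relatives of these genes, Car8 was called between segments and between knockouts. Car8 was higher proximally in controls, at 300 and 439 CPM against 84.1 and 66.3 (log2 difference 2.28, SE 0.23, limma adjusted p = 0.05, just under the threshold before rounding). In control Gli1+ cells it was higher proximally too, at 7.83 and 12.05 CPM against 2.21 and 2.56 (1.99, adjusted p = 0.0415). In the distal knockouts it stood at 16.4 and 16.0 CPM in GS4M2 and at 125 and 121 CPM in GA3M2, a log2 difference of -2.92 (SE 0.13, limma adjusted p = 0.00114). Best2, an anion channel of goblet cells, was lower in GS4M2 than in GA3M2 in both segments (-3.39 proximally and -1.70 distally, limma adjusted p = 0.00345 and 0.00401). Against the controls of their own tables, 0 other carbonic anhydrases and 0 partners were called by limma in any of the 4 goblet cell comparisons. The share of all genes called there was at most 0.325%. DESeq2 and edgeR counts over these lists were not taken. Slc26a3, which exports bicarbonate, had 280 and 639 normalized counts in proximal GS4M2 against 1204 and 2409, and 421 and 752 in proximal GA3M2 against 1282 and 2547. Slc9a3, the sodium-proton exchanger, was at 144 and 461 in proximal GS4M2 against 1421 and 1470 but at 3311 and 8264 in proximal GA3M2 against 1513 and 1554 normalized counts. Neither Slc26a3 nor Slc9a3 passed the threshold.

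In Gli1+ stromal cells, Car13 and Aqp1 were higher with Smad4 deleted, in both segments. Both were called in the proximal colon, against 9.61% of all genes, and both in the distal colon, against 14% of all genes. Car13 stood at 314 and 287 normalized counts in proximal GS4T against 119 and 155 in controls (log2 fold change 1.14, SE 0.22, limma adjusted p = 0.0309). Distally it stood at 416 and 352 against 157 and 171 (1.22, SE 0.19, adjusted p = 0.00982). Spread between libraries was small in each of these groups. Aqp1 had 255 and 860 normalized counts in proximal GS4T against 40.3 and 92.2 (2.92, SE 0.69, adjusted p = 0.0493), and 390 and 961 distally against 127 and 187 (1.98, SE 0.44, adjusted p = 0.0277). The second GS4T library held the higher Aqp1 value in each segment. Proximally, both were called only without GWTT-Proximal_2 and fell short without GS4T-Proximal_1, GS4T-Proximal_2 or GWTT-Proximal_1 (adjusted p from 0.0474, at a Car13 log2 fold change of 0.95, to 0.185). Distally they held without either GS4T library and fell short without GWTT-Distal_1 or GWTT-Distal_2 (adjusted p from 0.0522 to 0.114), and Aqp4 (2.75) was called without GWTT-Distal_2, against 8.12% of all genes. By edgeR only Car13 was called proximally, against 9.48%. GS4T-Proximal_2, the proximal library with the higher Aqp1 value, held 23.9 normalized counts of Gli1, against 1481 in GS4T-Proximal_1. Xist was at 7 reads in GWTT-Proximal_1 and at 14761 or more in the other GWTT and GS4T libraries. The part of these differences in the Aqp1 and Car13 values was not tested. Endothelial markers, of which Aqp1 is a known companion, summed to 251 and 296 CPM in proximal GS4T against 174 and 182, and to 212 and 451 CPM distally against 245 and 223. Epithelial markers summed to 684 to 1578 CPM in GS4T against 13.1 to 496 CPM in GWTT, and Car13 is also expressed in the epithelial libraries. The part of these markers in the Aqp1 and Car13 values was not tested.

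**Figure D4:**
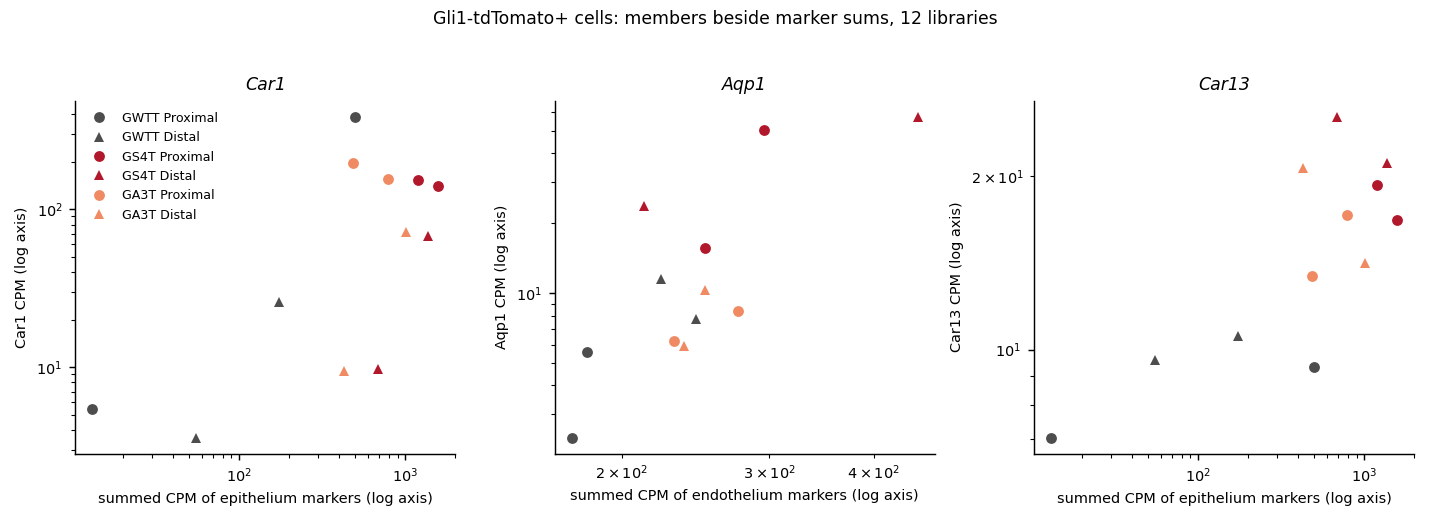
Level of Car1, Aqp1 and Car13 in Gli1+ cells against the summed level of epithelial markers (Car1 and Car13) or endothelial markers (Aqp1), in CPM on log axes, with 1 point per library, circles for proximal and triangles for distal colon. Aqp1 is highest in the GS4T libraries, whose endothelial sums run from 212 to 451 CPM against 174 to 245 CPM in GWTT.

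With Alk3 deleted instead, no member was called in Gli1+ cells of either segment. The percentage of all genes called was 0.358% proximally and 0% distally. Proximally, limma at an unadjusted p under 0.05 called 0 (against 9.46% of all genes), edgeR 0 (0%) and DESeq2 0 (6.31%). Distally, limma at an unadjusted p under 0.05 called 1 (against 7.77% of all genes), edgeR 0 (0%) and DESeq2 1 (5.03%), which was Car2. Car13 lay above the controls in both segments, at 240 and 300 normalized counts against 125 and 163 proximally (log2 fold change 0.91, SE 0.25, limma adjusted p = 0.148) and at 252 and 399 against 180 and 195 distally (0.76, SE 0.27, adjusted p = 0.238). Aqp1 was at 111 and 146 against 42.4 and 96.96 proximally, and at 184 and 114 against 145 and 213 distally, where the groups overlapped. In GA3T, 2 members were apart proximally, against 56.4% of all genes, and 3 distally, against 54.3%. These were Car13 and Aqp1 proximally, and Car13, Car2 (883 and 386 against 91.5 and 278 normalized counts) and Aqp11 (89.4 and 80.8 against 58.0 and 65.0) distally. For GS4T the counts were 4 of 9 in each segment, against 65.4% and 67.5%: Car13, Aqp1 and Aqp11 in both (Aqp11 lower, at 57.2 and 75.8 against 102 and 85.0 proximally and 23.9 and 47.0 against 50.8 and 57.1 distally), with Car12 proximally (164 and 322 against 14.5 and 142) and Car2 distally (248 and 837 against 80.2 and 244). Car4 overlapped its controls in each of the 4 comparisons. The difference of responses between segments was called in no member for either knockout, where 0.189% of all genes were called for GS4T and 0% for GA3T. In the GS4T test, limma at an unadjusted p under 0.05 called 0 (against 5.21% of all genes) and edgeR 0 (0.00653%). In the GA3T test, limma at an unadjusted p under 0.05 called 0 (against 3.18% of all genes) and edgeR 0 (0%).

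Car1, Car2, Aqp4 and Aqp8 differed widely between the proximal control libraries of Gli1+ cells, as epithelial markers did. GWTT-Proximal_1 had an epithelial marker sum of 13.1 CPM and held 92.0 normalized counts of Car1, 74.4 of Car2, 2.07 of Aqp4 and 0 of Aqp8. GWTT-Proximal_2 had an epithelial sum of 496 CPM and held 6408, 631, 459 and 69.7 normalized counts of the same genes. Both GS4T-Proximal libraries lay between the 2 controls in each of these 4 genes. The part of epithelial RNA in these values was not tested. With GWTT-Proximal_2 left out, 6 members were called in proximal GS4T (Aqp1, Car13, Car1, Car2, Car12 and Aqp4), against 14.1% of all genes, and 2 in GA3T (Car1 and Aqp4), against 0.732%. With GWTT-Proximal_1 left out, 3 were called in GS4T, Car1, Car4 and Aqp4, against 10.6% of all genes, with the sign of Car1 turned from 4.72 to -1.39. Distal controls had epithelial sums of 55.2 and 175 CPM and Car1 values of 58.7 and 420 normalized counts. Control Gli1+ cells of the 2 segments showed no called member, against 2.32% of all genes, and, of the other rules, limma at an unadjusted p under 0.05 called 1 (against 6.37% of all genes) and edgeR 0 (1.97%). The 1 member was Aqp1, at 2.38 and 5.56 CPM proximally against 7.75 and 11.50 CPM distally (log2 difference -1.35, SE 0.46, limma adjusted p = 0.217), a sign opposite to that in goblet cells. Between these segments 3 members were apart, Aqp1, Car13 and Aqp11, against 48.4% of all genes.

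Other carbonic anhydrases were called in the stromal cells. Car11, an inactive relative, was lower in GS4T than in GWTT in both segments, at 29.5 and 21.9 normalized counts against 215 and 255 proximally (log2 fold change -3.15, SE 0.32, limma adjusted p = 0.00812) and at 14.2 and 20.0 against 160 and 193 distally (-3.31, SE 0.37, adjusted p = 0.00412). Car15 was lower distally, at 30.1 and 36.4 against 83.1 and 89.1 (-1.35, adjusted p = 0.0429). Proximally 1 of 8 tested relatives was called, against 9.61% of all genes, and distally 2 of 8 were, against 14%. Among partners, 0 of 13 were called by limma proximally and 1 of 14 distally, against the same shares of all genes. The 1 was Atp12a, at 39.0 and 55.2 normalized counts against 3.91 and 5.81. Epithelial marker sums, given above, were also higher in GS4T than in GWTT libraries. The part of epithelial RNA in the Atp12a values was not tested.

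The genes whose levels ran most like a member were sought in the source where that member was highest, as Pearson correlations of log2(CPM + 0.1) across libraries, given as a description because libraries of a group share their treatment. Over 16 distinct organoid libraries, Aqp8 ran with Dhrs11 (r = 0.987), Coro2a (0.986) and Tcf7l2 (0.985), and Car2 ran with Ahcyl2 (0.973), Sult2b1 (0.968) and Slc40a1 (0.964). Car1 was closest to Abtb1 (0.943), Car13 to Tgfbr2 (0.930) and Aqp4 to Casd1 (0.911) in the same libraries. Over 12 goblet cell libraries, Car12 was closest to Mfap3l (0.984), Aqp11 to Guca2a (0.974), Aqp1 to Gsta4 (0.960) and Car4 to Thsd4 (0.919).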

How the data were processed

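Normalized counts of 42 mouse libraries (12 tables) were used as deposited. Per the methods, the authors sequenced SMARTer mRNA libraries, aligned reads uniquely to mm10 with STAR 2.5.3 and normalized counts with DESeq2 1.28.1. The program that counted reads, its annotation and its use of strand are not given in the sources used here. The deposited signal values are counts divided by size factors within each table. Dividing by the smallest value above 0 gave whole reads (tolerance 0.1) for 100% of values in every library, from which CPM and the count tests were made. Rows with no gene name (4 in each GS4M2 table, 20.9% to 28.2% of values) were left out. Groups came from the column names and labels. In the proximal GS4M2 table a heading in the supplementary material names the groups the other way round. The deposited names were used, and GWTM2 totals there match those of the GA3M2 table.

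Each comparison within a table was fitted with limma 3.58.1 (R 4.3.3, trend) on log2(value + 1) over genes with a mean of at least 10, comparisons by CPM on log2(CPM + 0.1) over genes with a mean CPM of at least 0.5, and differences of responses as interactions over both tables. Log2 fold changes are on that scale, which understates low genes. p-values were adjusted over all genes. The tests were two-sided. Alternatives were edgeR 4.0.16, DESeq2 1.42.0, other pseudocounts and filters, upper-quartile scaling, the replicate number as a block, and each library left out. The fits were tested on simulated data. "Apart" means that the libraries of the groups do not overlap. Members and lists were chosen with earlier results of these data known. The rule named all members in every comparison. Where none of their values stood apart or were called, some are given only as overlapping or by count. Label check genes and list genes are named when called or when a result turns on them. Same-numbered IL-1 and IL-17A libraries deviated together (r 0.576 to 0.856 at 12 hours, 0.433 to 0.737 at 72 hours) and were taken as paired. No label names these pairs. At 72 hours the libraries numbered 2 differed in Xist, at 26326 reads in IL1a+IL1b-72h_2 and 0 in IL17A-72h_2. The 72-hour block thus holds a pair that is not matched in Xist, and its pairing is in doubt. With the number as a block no member reached the fold limit and the p threshold together at either time. In the other comparisons groups shared at most 2 numbers, which were not taken to pair libraries. Same-numbered control and cytokine libraries at 12 hours also deviated together (r 0.619 to 0.637 with IL-1, 0.63 to 0.636 with IL-17A). The intervals given for 12 hours come from unpaired fits and leave this aside. Nothing says that libraries of a group came from separate animals, so p-values measure the spread between these libraries. Depth of 14222902 reads or more per library puts 1 read at under 0.1 CPM. Motifs were sought in RefSeq promoters (GRCm38.p6).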

Additional observations from a re-analysis of the deposited data

Results flagged for a closer look

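Members are listed here because the difference of their responses to IL-1 between 12 and 72 hours was called in a fit that counts 2 control libraries double. The difference of log2 fold changes, 72 minus 12 hours, was 4.09 for Aqp8, 2.37 for Car4, 1.44 for Car2 and -3.18 for Aqp1 (limma interaction, adjusted p = 0.00583, 0.0178, 0.00568 and 0.0159, 10 distinct libraries). The controls of the 2 times hold 2 libraries in common, which enter that fit double, so these p-values are too small. With them left out of both times, no member was called (adjusted p from 0.111 to 0.119). Compared directly by CPM, the treated libraries gave 3.34, 1.81, 1.12 and -3.29. In that comparison 20.9% of all genes were called. It holds no control, so it shows a difference between the times and not one in the response to IL-1.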

How the results depend on the processing

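Of the recomputed counts of called members, 200 stayed the same, 36 were higher and 9 lower. The calls in organoids given IL-1 for 72 hours numbered 4 under each left-out library. Where limma called 0 members, an unadjusted p under 0.05 gave 3 in proximal GS4M2, 2 in proximal GA3M2, 1 in distal GA3M2, 1 in distal GA3T, 2 with IL-17A at 72 hours, 4 in GWTM2 and 1 in GWTT between segments, 1 between cytokines at 72 hours, 1 between knockouts proximally, 1 for the GA3M2 difference between segments and 1 for the IL-17A difference between times. DESeq2 gave 2, 1, 1, 1 and 3 in proximal GS4M2, proximal GA3M2, distal GA3M2, distal GA3T and IL-17A at 72 hours. In proximal GS4T the 2 calls became 1, Car13 alone, with a pseudocount of 0.1, no filter, upper-quartile scaling or edgeR. A pseudocount of 1 on CPM gave 1 call in GWTM2 between segments. Leaving out Control-72h_1 and IL17A-72h_2, chosen after seeing the data, gave 4 with IL-17A. Leaving the controls held at both times out of the IL-1 difference between times, also chosen after seeing the data, gave 0 in place of 4, with 1 control per time assumed to vary like the other groups.

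With the replicate number as a block, taken to pair libraries only between IL-1 and IL-17A, calls became 3 in proximal GS4M2 (260 of 13246 genes), 2 in proximal GA3M2 (699 of 13346), 4 in distal GS4T (2333 of 15262), 5 in GWTM2 between segments (545 of 13301) and 1 between knockouts proximally (667 of 13295). In GWTM2 same-numbered libraries of the segments deviated together (r = 0.565), but with 2 numbers and no label for it their pairing was not settled. Other counts of members stayed within 1.5 times. Over all genes, calls numbered 43 in proximal GS4M2 (270 by DESeq2), 2998 with IL-1 at 72 hours (1518 with the block) and 1038 with IL-17A at 72 hours (2311 by DESeq2, 3 with the block). Leaving out 1 library gave 0 to 1 calls in proximal GS4M2 and proximal GA3M2, 0 to 2 in distal GS4M2, 0 to 3 in distal GA3M2, 0 to 6 in proximal GS4T, 0 to 2 in proximal GA3T and in distal GS4T, 0 to 4 with IL-17A at 72 hours, 0 to 5 in GWTM2 between segments, 0 to 2 between knockouts proximally and 2 to 4 distally. The cause was not tested, beyond the smaller number of libraries. Averaging identical libraries gave no value within a table because none holds both of a pair. In the difference between times, each counted once would merge the controls of both times, and the fits without them are given instead. With 2 libraries per group, intervals in sorted cells were wide where libraries differed, as for Car1 in distal GS4M2, from -4.42 to 2.13.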
